A study of Saccharomyces cerevisiae with 50 samples.

Results

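Gcn4p is the yeast transcription factor that turns on amino acid biosynthesis genes when amino acids or nitrogen are short, and most of what is known of it concerns binding sites upstream of genes. Here the Gcn4p binding regions that lie away from any promoter are described. Overlapping ChIP-Seq peaks of the 3 wild-type GCN4-myc immunoprecipitations (IPs) were merged, which gave 890 regions, and the 239 of them (26.9%) that shared no base with the 600 bp upstream of any annotated gene were kept. The remaining 651 regions, which touch at least 1 promoter, serve as the comparison. Being at a promoter means here only that a region touches it, not that the region is centred in it. When a region was removed only if a promoter covered its midpoint, 626 of the 890 counted as outside promoters. Many of the 651 thus have their midpoint outside every promoter. Of all bases considered, 73.5% lie outside promoters. The wild-type peak positions chose the regions, so their wild-type support and scores are given as a description, whereas the lists from the rtg3Δ strain and from the other factors took no part in the choice.

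The tested strain carried myc-tagged Gcn4p in a W303 background with RTG3 replaced by a kanamycin marker, and the wild-type strain carried the same tagged Gcn4p with RTG3 intact. Both were grown in rich medium (YPD) and given 100 nM rapamycin, an inhibitor of the TOR kinase that mimics nitrogen starvation, for 20 min. Strains with myc-tagged Rtg3p, either gcn4Δ or wild type, were treated the same way. Rtg3p is a basic helix-loop-helix factor of the retrograde response, through which cells with impaired mitochondria adjust the supply of glutamate and other intermediates. The other lists come from tagged Sut1p (nrg1Δ or wild type), Nrg1p (sut1Δ or wild type), Swi4p (swi6Δ or wild type) and Swi6p (swi4Δ or wild type). Sut1p and Nrg1p act in sterol uptake and glucose repression, and Swi4p and Swi6p form the SBF complex of the G1 to S transition. By the labels the Sut1p, Nrg1p and Swi4p cultures grew in YPD with no rapamycin named, and for the Swi6p cultures the labels name neither medium nor treatment. Wild-type IPs of a factor came from 1 culture that was split, whereas the replicate IPs of a deletion strain came from separately grown cultures. A difference between strains therefore cannot be told apart from a difference between cultures. The SD of deletion IPs includes the spread between cultures, and that of wild-type IPs does not.

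In promoters a factor such as Gcn4p recruits coactivators that bring RNA polymerase to the transcription start. Yeast genes lie close together, so the DNA outside promoters is mostly coding sequence, together with the short intervals between genes that end towards each other (convergent genes), where no gene starts. A factor bound inside a coding sequence or at a gene's 3' end sits away from the start site that its target genes would use.

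Each of the 30 IPs has 1 peak list, called by MACS against INPUT DNA, and the lists hold 8486 peaks in all. Every peak has a position and a MACS score of 50 or more, which is larger the smaller the P-value of the peak. The lists give no reads, the depth of each IP is therefore unknown, and a missing peak means only that none was called. The rtg3Δ lists held 494, 416 and 551 Gcn4p peaks, and the wild-type lists 502, 626 and 519. Within these lists rtg3Δ IP 1 stood apart, with a median peak outside promoters of 720 bp, against 1130 and 1119 bp in rtg3Δ IPs 2 and 3, and wild-type IP 3 had the longest such peaks (1474 bp, against 1153 and 1149.5 bp in wild-type IPs 1 and 2). Each IP was left out in turn in the comparisons between strains of the share of peaks outside promoters and of the shares of regions outside promoters with a Gcn4p or an Rtg3p peak.

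Regions outside promoters were found on all 16 chromosomes, between 3 and 24 on each. They lay mainly in coding sequence. Of the 239, 136 (56.9%) were wholly inside a gene, 90 (37.7%) touched the interval between convergent genes, most of them together with the gene ends on its sides, 10 (4.18%) held the 3' end of a gene elsewhere, and 3 (1.26%) lay in other intergenic DNA. For comparison, windows of 1326 bp (the median length of these regions) were tiled along the genome in steps of 50 bp, and those free of promoters were classed in the same way. Of these windows 58.1% were inside a gene, 33.3% touched a convergent interval, 5.97% held another 3' end and 2.55% were other intergenic. The classes of the bound regions thus came in shares similar to those of promoter-free DNA at large, and no test was made of the small differences. Promoter-free windows made up 34.3% of all windows, while regions outside promoters made up 26.9% of all Gcn4 regions. These 2 shares are not on like terms. The windows had the median length of regions outside promoters, whereas all Gcn4 regions had a median of 1435 bp. Longer windows are less often free of promoters, so the shares do not show a depletion.

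The 136 gene-body regions lay in 136 different genes. Host genes were long, with a median of 3170 bp and a range of 1347 to 14733 bp, against a median of 1200 bp over 6002 protein-coding genes. The rule itself requires this, since a region of typical length inside a short gene would reach the gene's own promoter. Midpoints lay at a median of 52.3% of the host's length from its start, between 13.0% and 89.0%. In distance, midpoints were between 610 and 12913 bp downstream of the start, with a median of 1462 bp. With the host gene divided into 4 equal parts from its start, 10, 48, 64 and 14 midpoints fell in them, so the regions gathered in the middle, where a region can fit. Among the 90 convergent regions, 55 held the ends of at least 2 genes and 34 held 1 gene end.

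**Figure D1:**
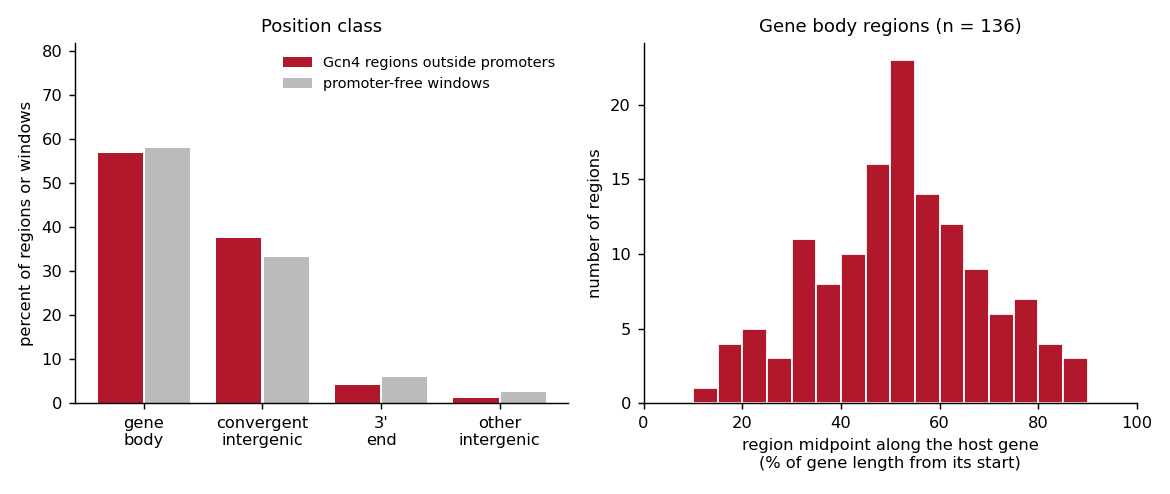
Left, percent of the 239 Gcn4 regions outside promoters (red) and of promoter-free 1326 bp windows (grey) in each position class, where gene bodies hold 56.9% of the regions and 58.1% of the windows. Right, number of gene-body regions by the position of the region's midpoint along its host gene (percent of gene length from the start), which gather around the median of 52.3%.

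Few genes of the pathways that Gcn4p is known for were touched by a region outside promoters, and few genes were at large. Of 87 amino acid biosynthesis genes found in the annotation, 2 (2.30%) were touched by a region outside promoters, while 37 (42.5%) had a region at their promoter. Over all 6430 genes these shares were 4.45% and 17.6%. With 2 genes touched, the first share cannot be told apart from that over all genes, and no test was made. A region that also reaches a promoter is counted there by the rule. The 2 genes were ARG3, the ornithine carbamoyltransferase of arginine synthesis, and ALT1, an alanine transaminase, and both were touched at a convergent 3' end by a weak peak in 1 wild-type IP (score 50.8 near ARG3 and 103 near ALT1) with none in rtg3Δ IPs. Among 25 genes of glycolysis and fermentation, 1 body was touched, that of PFK1, the alpha subunit of phosphofructokinase. The PFK1 region (chrVII:972067-973582) had scores of 269, 93.6 and 69.8 in rtg3Δ IPs, against 189, 240 (239.7) and 183 in wild-type IPs. None of 138 cytoplasmic ribosomal protein genes and none of 275 tRNA genes was touched by a region outside promoters, although 21 and 38 of them had a region at their promoter. Such genes are short, and a region over them would usually reach their promoters and be removed by the rule.

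Support among the wild-type IPs was uneven. Of the 239 regions, 114 (47.7%) had a peak in 1 wild-type IP, 77 (32.2%) in 2 and 48 (20.1%) in all 3. The corresponding counts for the 651 regions at promoters were 281 (43.2%), 177 (27.2%) and 193 (29.6%), and 27.1% of all 890 regions had a peak in all 3 wild-type IPs. Wild-type IPs 1, 2 and 3 had a peak in 113, 175 and 124 of the regions outside promoters, so that IP 2 contributed the most. Of those with a single wild-type IP, 30 came from IP 1, 53 from IP 2 and 31 from IP 3. Regions outside promoters were shorter, with a median of 1326 bp (333 to 2982 bp), against 1515 bp (600 to 5103 bp) at promoters. A longer region is more likely to reach a promoter, so length and class are tied by the rule.

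Most regions outside promoters were weak, and a small group was strong, with a highest mean score of 2988, against 3100 for the strongest regions at promoters. The score was averaged over the wild-type IPs, where absence of a peak was set to 0. This mean score had a median of 56.6 outside promoters and 66.3 at promoters. A mean of 100 or more was reached by 69 regions outside promoters (28.9%) and by 279 at promoters (42.9%). A mean of 1000 or more was reached by 12 outside (5.02%) and by 48 at promoters (7.37%). Scores are capped in practice, since 197 of all peaks share the value of 3100 and 16 lie above it, and 9 of the 239 regions reached 3100 or more in at least 1 of the 6 Gcn4p IPs. Differences among the strongest regions are therefore compressed. Within single lists, the median score of peaks outside promoters was 156, 130 (129.8) and 109.7 in wild-type IPs 1, 2 and 3, against 154, 156 and 157 for peaks at promoters.

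At the border of the rule, the regions differed by a few bases from being counted on the other side. The nearest members to a promoter were those in ASI1 and at HOL1, each 2 bp from the gene's own promoter, and 1 over the convergent ends of SOF1 and PSR1, 4 bp from the PSR1 promoter. Just inside the other class, regions at ADY4, MTW1 and DSE4 overlapped a promoter by 1, 2 and 2 bp. Wild-type mean scores of the 3 regions just outside were 2145, 2223 and 56.6, and those of the 3 just at a promoter were 25.7 (ADY4), 222 (MTW1) and 22.5 (DSE4). ASI1 and HOL1, which are 2 of the strongest regions outside promoters, thus belong to the set by a margin of 2 bp.

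The 10 regions with the highest wild-type mean score ran from 1308 to 2988, and each had a peak in all 3 rtg3Δ IPs. So did 46 of the 48 regions at promoters with a mean score of 1000 or more, so this recurrence was shared by strong regions of both sets. Of these 10 outside promoters, 7 lay in gene bodies, 2 at convergent ends and 1 at another 3' end, and 7 held no peak of any other factor. Over all 239 regions outside promoters 45.2% held none, and over all 890 regions 38.1%. In all 10, wild-type IP 3 had the lowest score of the 3 wild-type IPs.

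The strongest region lay inside OAF3 (YKR064W), which encodes a zinc cluster repressor of oleate-responsive genes (chrXI:563588-565028). Its scores were 3100, 3100 and 3100 in rtg3Δ IPs, against 3100, 3100 and 2763 in wild-type IPs. It covered 55.6% of the gene, with its midpoint 1761 bp from the start of a gene of 2592 bp, and held no peak of another factor. The next (chrVIII:417913-419790) covered the convergent ends of TDA11, which is little characterized, and PEX18, a receptor for protein import into peroxisomes, with 76.0% of TDA11 and 66.9% of PEX18 inside it. There the scores were 3100, 2894 and 2910.5 in rtg3Δ IPs, against 3100, 3100 and 1984 in wild-type IPs, and 1 wild-type Rtg3p IP and 1 wild-type Sut1p IP also had a peak. The next after it lay inside SPA2, a scaffold of the polarisome at sites of bud growth (chrXII:102721-105338). It reached 3100 in the 3 rtg3Δ IPs, against 3100, 3100 and 1313 in wild-type IPs. In these 3 places the rtg3Δ scores sat at or near the value at which scores saturate, so they cannot rank the strains.

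HOL1 encodes a transporter of the plasma membrane, and its region (chrXIV:728058-730185) covered 99.9% of the gene together with its 3' end. Scores there were 2645, 1692 and 1938 in rtg3Δ IPs, against 2478, 2544 and 1647 in wild-type IPs. ASI1 encodes a ubiquitin ligase of the inner nuclear membrane that restrains signalling by extracellular amino acids. Its region (chrXIII:505334-506577) had scores of 3145, 1816 and 2859 in rtg3Δ IPs, against 2250.4, 2691 and 1493 in wild-type IPs. In both places the scores of the strains overlapped.

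Inside RAD1, a subunit of the nuclease that cuts damaged DNA in nucleotide excision repair (chrXVI:507574-508962), scores were 3100, 1404 and 1965 in rtg3Δ IPs, against 1538, 2554 and 1297 in wild-type IPs. TRM732 acts with a methyltransferase on the anticodon loop of tRNAs, and its region (chrXIII:786584-787792) had 3100, 1375 and 2004 in rtg3Δ IPs, against 1769, 2234 and 1288 in wild-type IPs. A region over the convergent ends of MTQ1, a methyltransferase of translation release factors, and GCD10, a subunit of a tRNA methyltransferase that was first found as a regulator of GCN4 translation, had 3102, 1602 and 1844 in rtg3Δ IPs, against 1544, 1719 and 904 in wild-type IPs (chrXIV:507979-509399). The scores of the strains overlapped in each of these 3 places.

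The last of the 10 were in APL4, a clathrin adaptor subunit (chrXVI:624902-626607), and MEC1, the checkpoint kinase that answers DNA damage and stalled replication (chrII:508549-510296). APL4 had scores of 1839, 932 and 1359 in rtg3Δ IPs, against 1631, 1559.8 and 838 in wild-type IPs. MEC1 had 3100, 1448 and 1874 in rtg3Δ IPs, against 2003, 1441 and 479.6 in wild-type IPs. The MEC1 region lay 2148 bp from the nearest promoter, with its midpoint at 52.8% of a gene of 7107 bp. For neither gene did the strains separate.

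Among the 48 regions with a peak in all 3 wild-type IPs, 27 lay in gene bodies and 16 at convergent ends. Of the 48, 27 (56.25%) held no peak of another factor, against 64 of the 193 such regions at promoters (33.2%) and 38.1% of all 890 regions. The 193 were longer, with a median of 1895 bp against 1453.5 bp for the 48, which leaves more room for an overlap. The part of length was not tested. The 20 strongest of them all had a peak in all 3 rtg3Δ IPs. Ranks 11 to 20 included a region that touched no annotated gene, between EMA17 and EMC5 (chrIX:302330-303571), with scores of 2816, 957 and 1256 in rtg3Δ IPs, against 1666, 1416 and 470.4 in wild-type IPs. The others lay in SOG2 of a kinase network for polarized growth, SCP160 for an RNA-binding protein, BCK2 for an activator of G1 genes, TEL1 for a checkpoint kinase, RNR1 for the large subunit of ribonucleotide reductase, ROT2 for a glucosidase of the endoplasmic reticulum and TOF1 for a replication fork protein, and at the 3' ends of SLP1 and ISN1 and of XRS2. XRS2, a subunit of the complex that processes DNA double-strand breaks, had scores of 693, 103.6 and 316 in rtg3Δ IPs, against 929, 634 and 709 in wild-type IPs. TOF1 had 3199, 521 and 884 in rtg3Δ IPs, against 679, 659.6 and 344 in wild-type IPs, so that 1 of the rtg3Δ IPs alone was above 1000. At RNR1, a gene known to be induced in late G1, peaks of 1 Swi4p and 2 Swi6p IPs overlapped the Gcn4 region, and how far those peaks reach beyond it was not examined.

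**Figure D2:**
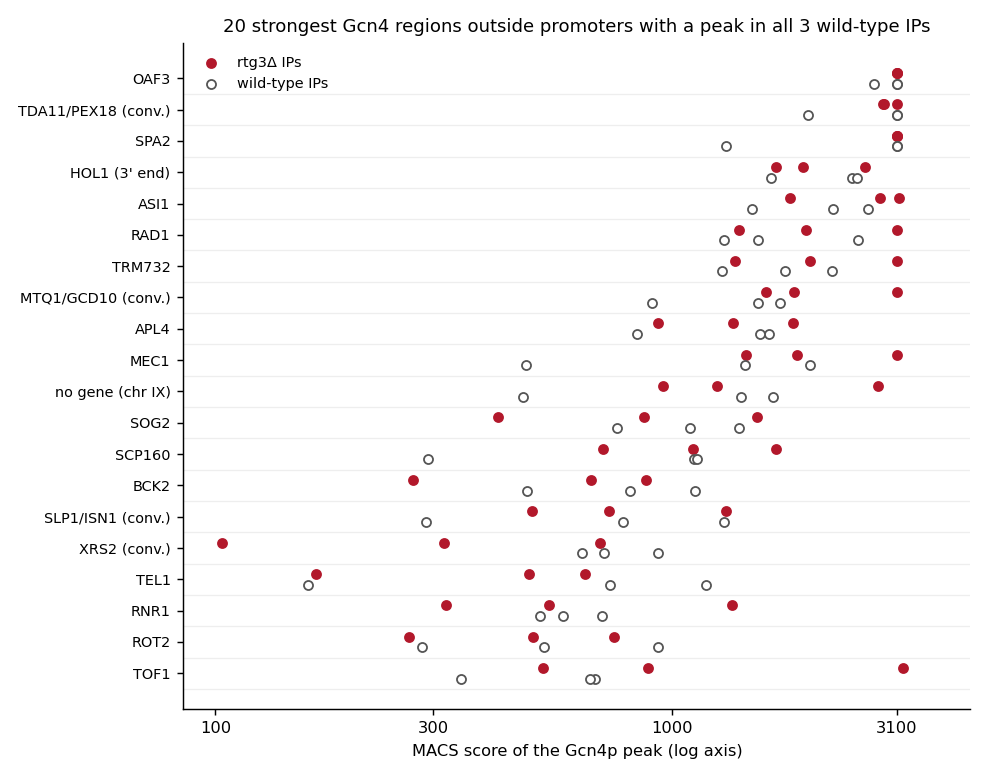
MACS score (log axis) of the Gcn4p peak in each rtg3Δ IP (filled red) and each wild-type IP (open grey) for the 20 strongest regions outside promoters with a peak in all 3 wild-type IPs, named by the genes they touch (conv. marks convergent ends). The ranges of the strains overlap at all 20, and at OAF3 and SPA2 the 3 rtg3Δ IPs share the value of 3100.

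The design asks whether Gcn4p binding changes without Rtg3p. At the level of whole lists, 37.4%, 21.4% and 29.6% of the peaks in rtg3Δ IPs lay outside promoters, against 28.3%, 33.2% and 24.7% in wild-type IPs. The means were 29.5% ± 8.03 in rtg3Δ IPs and 28.7% ± 4.30 in wild-type IPs (SD, n = 3 each), and the difference of 0.75 percentage points was well within the spread between IPs (two-sided exact permutation test over IPs, P = 0.9, where 3 against 3 cannot go below 0.1). Its sign depended on single IPs: without rtg3Δ IP 1 it was -3.24 and without wild-type IP 3 it was -1.28.

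Region by region, 127 of the 239 (53.1%) had a peak in at least 1 rtg3Δ IP, against 398 of 651 (61.1%) at promoters and 59.0% of all 890 regions. A peak in all 3 rtg3Δ IPs was found in 42 regions outside promoters (17.6%) and in 165 at promoters (25.3%), against 23.3% over all. The number without any rtg3Δ peak was 112 outside promoters and 253 at promoters. By IP, regions outside promoters had a peak in 32.2%, 25.1% and 44.4% of cases in rtg3Δ IPs 1, 2 and 3, while regions at promoters had one in 35.8%, 42.5% and 49.9%. The share was lower outside promoters in 3 of 3 rtg3Δ IPs, with a mean difference of -8.86 percentage points ± 7.50 (SD, n = 3), and the sign-flip exact permutation test gave P = 0.25, the smallest that 3 IPs allow. Without rtg3Δ IP 2 the difference was -4.57.

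As wild-type IPs chose the regions, a wild-type value needs at least an IP that took no part. Such an IP still shares its culture with the IPs that chose the regions, whereas the rtg3Δ IPs do not. The wild-type value may therefore still be favoured, which was not tested. Each wild-type IP was therefore left out in turn, regions were rebuilt from the other two, and the share with a peak was counted in the left-out IP and in the rtg3Δ IPs. Regions outside promoters rebuilt in this way numbered 211, 190 and 239. A peak was found in 35.4%, 28.6% and 48.0% of them in rtg3Δ IPs 1, 2 and 3 (each averaged over the 3 choices), against 40.3%, 66.3% and 51.9% in the left-out wild-type IPs 1, 2 and 3. The means were 37.3% ± 9.81 in rtg3Δ IPs and 52.8% ± 13.0 in wild-type IPs (SD, n = 3 each), a difference of -15.5 percentage points, and the groups overlapped (exact permutation test, P = 0.2). This difference was 0.73 without wild-type IP 2 and -26.6 without wild-type IP 1. With a wild-type IP dropped, each set of regions was rebuilt from 1 IP in place of 2, so the regions changed as well. With all IPs kept, the difference was -3.62 for regions with a peak in 2 wild-type IPs, -6.37 with scores of at least 100 and -9.10 with lists of equal length. At promoters the same measure was 38.5%, 45.1% and 53.5% in rtg3Δ IPs, against 50.4%, 62.8% and 52.1% in left-out wild-type IPs, a difference of -9.41 (P = 0.3, exact permutation test). The change outside promoters and the change at promoters differed by -6.08 percentage points (exact permutation test, P = 0.4).

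**Figure D3:**
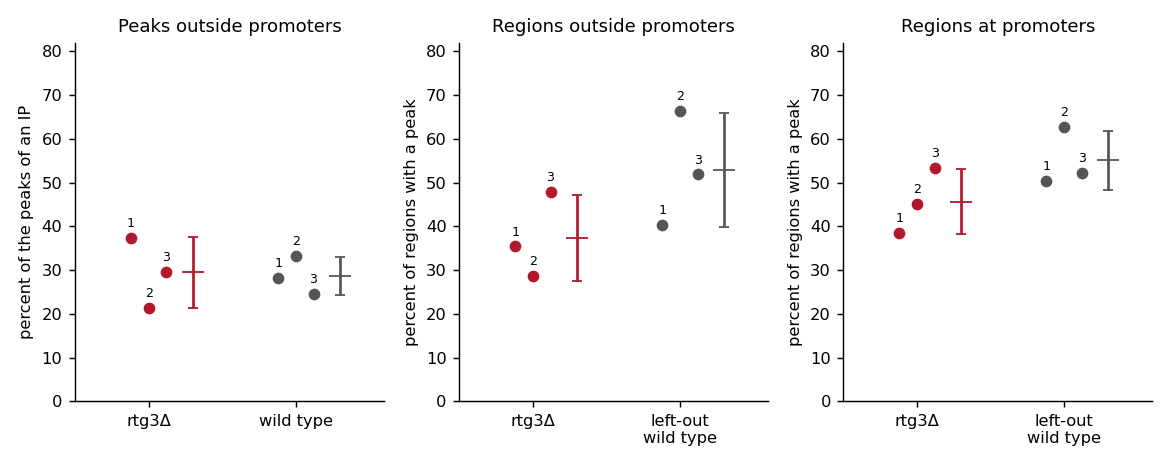
Percent of the peaks of each Gcn4p IP that lie outside promoters (left), and percent of regions outside promoters (middle) and at promoters (right) with a peak in rtg3Δ IPs (red) and in the wild-type IP left out of the choice (grey). Points are IPs with their replicate number, bars the mean ± SD of 3 IPs, and in each panel the range of the rtg3Δ IPs overlaps that of the wild-type IPs.

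Within the rtg3Δ lists, peaks outside promoters scored lower than those at promoters. The median scores were 372, 185 and 140.5 outside promoters and 472, 251 and 174 at promoters in rtg3Δ IPs 1, 2 and 3. Peaks outside promoters had the lower median in 3 of 3 rtg3Δ IPs, with a mean difference of -66.7 ± 33.7 (SD, n = 3), and the sign-flip exact permutation test gave P = 0.25, again the smallest possible. In the wild-type lists, from which the regions were drawn, the differences were 2.27, -26.2 and -46.8.

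Where both strains had a peak, most midpoints of the highest peaks lay within 200 bp of each other. Both peaks had to overlap the same region, which itself keeps the midpoints close, and no expected distance was computed. Over the 127 regions outside promoters with a peak in an rtg3Δ IP, the midpoint of the highest rtg3Δ peak was a median of 62.5 bp from that of the highest wild-type peak, and in 97 (76.4%) it was within 200 bp. At promoters the median was 79.5 bp over 398 regions. For the 34 regions outside promoters with a peak in all 6 IPs the median was 49 bp. The rtg3Δ peaks over these regions mostly stayed outside promoters as well: 1 of 78, 2 of 60 and 8 of 106 reached a promoter in rtg3Δ IPs 1, 2 and 3.

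Whether a region recurred in the rtg3Δ strain followed its wild-type score and the IPs that held it. With a wild-type mean score under 50, 36 of 104 regions outside promoters (34.6%) had a peak in at least 1 rtg3Δ IP, against 99 of 251 (39.4%) at promoters. From 50 to 100, 31 of 66 (47.0%) had 1 outside promoters and 66 of 121 (54.5%) at promoters. From 100 to 300 it was 32 of 41 (78.0%) outside and 112 of 157 (71.3%) at promoters. Above 300, 16 of 16 and 12 of 12 regions outside promoters, in the bins below and above 1000, had a peak in the rtg3Δ strain, against 73 of 74 and 48 of 48 at promoters. At a like score, regions outside and at promoters thus came close to each other, a description across regions of 3 shared IPs with no test.

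The 31 regions outside promoters that were called in wild-type IP 3 alone had an rtg3Δ peak in 6.45% of cases, against 29.0% of the 93 such regions at promoters. For wild-type IP 1 alone it was 56.7% of 30 regions outside and 71.0% of 107 at promoters, and for IP 2 alone 37.7% of 53 outside and 27.2% of 81 at promoters. Regions called in IPs 1 and 2 but not 3 had an rtg3Δ peak in 90.6% of 32 cases outside promoters, whereas those called in IPs 2 and 3 but not 1 had one in 28.6% of 42 cases. With a peak in all 3 wild-type IPs the share was 93.8% outside promoters and 94.8% at promoters, and 70.8% and 64.8% had a peak in all 3 rtg3Δ IPs. Wild-type IP 1 thus went with recurrence in the rtg3Δ strain, and IP 3 without IP 1 did not. Neither depth nor any other property of these IPs could be compared, and their part in the result was not tested.

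**Figure D4:**
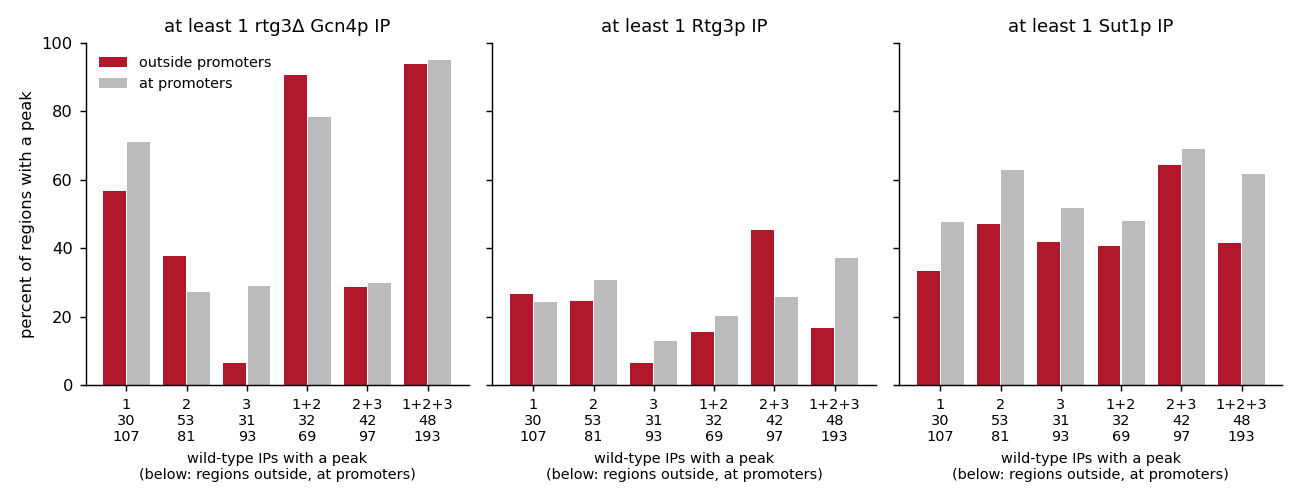
Percent of regions outside promoters (red) and at promoters (grey) with a peak in at least 1 rtg3Δ Gcn4p IP, 1 Rtg3p IP or 1 Sut1p IP, split by the wild-type Gcn4p IPs that hold the region. Numbers under each pattern are the regions outside and at promoters, and the pattern of IPs 1 and 3, with 3 and 11 regions, is left out. Regions from IP 3 alone outside promoters reach 6.45% in the left panel and those in all 3 IPs 93.8%.

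A peak in all 3 wild-type IPs and none in the rtg3Δ IPs was rare. This held for 3 of the 48 regions outside promoters, and 5.18% of the 193 at promoters. The 3 lay in ZRG8 (chrV:218881-221200; wild-type scores 216, 467 and 70.7), over the 3' end of MSN2, the general stress transcription factor (chrXIII:344357-346399; 56.3, 62.6 and 87.5), and in DUG2 of glutathione breakdown (chrII:765420-767031; 68.7, 64.4 and 50.5). In the other direction, 2 of the 114 regions outside promoters with a peak in 1 wild-type IP (1.75%) had one in all 3 rtg3Δ IPs. At promoters this held for 20 of 281 (7.12%). The 2 outside promoters lay in POX1, the acyl-CoA oxidase of fatty acid breakdown, with 620.2, 144 and 78.6 in rtg3Δ IPs against 161 in wild-type IP 1, and over the 3' end of YKL162C, with 516, 407 and 74.3 in rtg3Δ IPs against 149 in wild-type IP 1.

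Merged on their own, the rtg3Δ lists gave 857 regions, of which 257 (30.0%) lay outside promoters. Of these 257, 117 (45.5%) overlapped one of the 239 wild-type regions outside promoters, 38 overlapped a wild-type region at a promoter, and 102 (39.7%) overlapped no wild-type region. Of these 102, 96 had a peak in 1 rtg3Δ IP, 6 in 2 and 0 in all 3. They came mostly from rtg3Δ IPs 1 and 3, with 58 and 41, and in 9 cases from IP 2. Regions outside promoters found in the rtg3Δ strain alone were therefore nearly always calls of a single IP.

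The other 13 regions were not inside genes or at convergent ends. Of the 10 at single 3' ends, 4 had a peak in 1 wild-type IP, 3 in 2 and 3 in all 3, and 5 had a peak in an rtg3Δ IP. Besides HOL1 they included RDR1, a repressor of drug-resistance genes (601, 202 and 295 in rtg3Δ IPs, against 282, 253 and 92.3 in wild-type IPs), MKK2 of the cell wall integrity kinase pathway (none, 515 and 357 in rtg3Δ IPs, against 409, 183 and none in wild-type IPs), and FLO11, a cell surface flocculin (no rtg3Δ peak, against 81.9 and 87.0 in wild-type IPs 2 and 3). The 3 in other intergenic DNA each had an rtg3Δ peak. One lay between IRC7 and YFR057W near a chromosome end (chrVI:266936-268308), with none, 576 and 618 in rtg3Δ IPs, against 489, 259.6 and 400.1 in wild-type IPs. Another covered the first 333 bp of chromosome XII, with 1 weak peak in each strain (124 in rtg3Δ IP 1, against 54.1 in wild-type IP 2).

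Peaks of at least 1 of the 5 other factors were found in 131 of the 239 regions, against 61.9% of all 890 regions, and 108 regions (45.2%) held none, against 231 of 651 (35.5%) at promoters. How many of the peaks of other factors themselves reach a promoter was not counted. The large position classes differed in the share without a peak of another factor. In gene bodies 76 of 136 (55.9%) had none, whereas at convergent ends 24 of 90 (26.7%) had none. Sut1p was the most frequent, with a peak of at least 1 of its 6 IPs in 109 regions outside promoters (45.6%), against 374 (57.5%) at promoters and 54.3% of all regions. At convergent ends 64.4% had a Sut1p peak, and in gene bodies 33.8%. The Sut1p lists were uneven, and wild-type IP 3 with 58 regions stood apart from wild-type IPs 1 and 2 with 2 and 3. Without that IP, 91 of the 239 regions (38.1%) and 328 of those at promoters (50.4%) had a Sut1p peak, against 47.1% of all. In nrg1Δ IPs 35, 44 and 72 of the 239 regions had a Sut1p peak, from lists of 696, 808 and 1065 peaks, against 2, 3 and 58 in wild-type IPs, from lists of 117, 267 and 579 peaks. These lists covered 5.65%, 8.30% and 10.3% of the genome in nrg1Δ IPs, against 1.43%, 2.82% and 7.71% in wild-type IPs. Long lists meet more regions, and the longer regions at promoters leave more room for an overlap. The part of either in these shares was not tested. Seen from the Sut1p lists, between 5.17% and 7.14% of the peaks in nrg1Δ IPs overlapped a Gcn4 region outside promoters, against 1.12% to 10.2% in wild-type IPs.

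Rtg3p, the factor studied together with Gcn4p, had a peak of at least 1 of its 6 IPs in 56 regions outside promoters (23.4%) and in 175 at promoters (26.9%), against 26.0% of all regions. A wild-type Rtg3p peak was found in 20.5% of the 239 (23.4% of all regions), and a gcn4Δ Rtg3p peak in 9.62% (10.6% of all). By IP the shares outside promoters were 2.51%, 2.09% and 6.28% in gcn4Δ IPs, against 13.8%, 6.69% and 7.53% in wild-type IPs. Means were 3.63% ± 2.30 in gcn4Δ IPs and 9.34% ± 3.89 in wild-type IPs (SD, n = 3 each), and the groups did not overlap. The difference of -5.72 percentage points gave P = 0.1 in the exact permutation test, the smallest that 3 against 3 allows, so it could not pass 0.05. It was -3.49 without wild-type Rtg3p IP 1 and -3.03 with scores of at least 100. At promoters the shares were 4.92%, 1.69% and 7.68% in gcn4Δ IPs, against 16.7%, 9.22% and 11.5% in wild-type IPs, a difference of -7.73 (P = 0.1, exact permutation test). In percentage points the change outside promoters was the smaller by 2.01 (exact permutation test, P = 0.1, again the smallest). The shares also started lower there, with a wild-type mean of 9.34%, against 12.5% at promoters. In gcn4Δ IPs the means were 3.63% outside and 4.76% at promoters. The gap in points therefore does not show a smaller change relative to the wild-type share, which was not tested. The lists themselves were of unequal length, with 103, 46 and 216 Rtg3p peaks in gcn4Δ IPs, against 297, 117 and 204 in wild-type IPs. As a share of each list, 5.83%, 10.9% and 6.94% of the gcn4Δ Rtg3p peaks overlapped a Gcn4 region outside promoters, against 11.4%, 13.7% and 8.82% of the wild-type peaks. The part of list length in the difference was not tested.

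Where a region outside promoters held an Rtg3p peak, its midpoint was a median of 130 bp (129.8) from that of the highest wild-type Gcn4p peak over 56 regions, and within 200 bp in 33. For Sut1p the median was 254.5 bp over 109 regions, with 46 within 200 bp. At promoters these medians were 201 bp for Rtg3p and 299 bp for Sut1p. Outside promoters, the plotted pattern with the highest share of Rtg3p peaks was that of wild-type Gcn4p IPs 2 and 3 without IP 1, at 45.2% of 42 regions, against 25.8% of 97 at promoters. The same 42 regions had the highest Sut1p share outside promoters, 64.3%. With a Gcn4p peak in all 3 wild-type IPs, 16.7% of regions outside promoters and 37.3% at promoters held an Rtg3p peak. These shares describe sets chosen by the wild-type Gcn4p IPs and carry no test.

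Nrg1p, Swi4p and Swi6p were seldom found, and some of the peaks counted here themselves reach a promoter. Nrg1p wild-type IP 2 had 0 peaks outside promoters yet met 2 of the regions. Both Swi6p swi4Δ IPs had 0 yet met 1 region each, and the wild-type Swi4p IP had 2 yet met 3. Outside promoters 2.51% of regions had an Nrg1p peak, against 4.15% at promoters and 3.71% of all. For Swi4p it was 4.18% outside and 7.07% at promoters, against 6.29% of all, and for Swi6p 4.60% outside and 10.3% at promoters, against 8.76% of all. The Swi4p counts were 10 regions in the swi6Δ IP and 3 in the wild-type IP, with 1 IP each and so no replicate check. They came from lists of 182 and 73 peaks. The Swi6p counts were 1 and 1 in swi4Δ IPs, against 9 and 8 in wild-type IPs. Here the lists held 3 and 8 peaks, against 228 and 204. As a share of each Swi6p list, 33.3% and 12.5% of the swi4Δ peaks overlapped a region outside promoters, against 3.95% and 3.92% of the wild-type peaks. The part of list length was not tested.

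**Figure D5:**
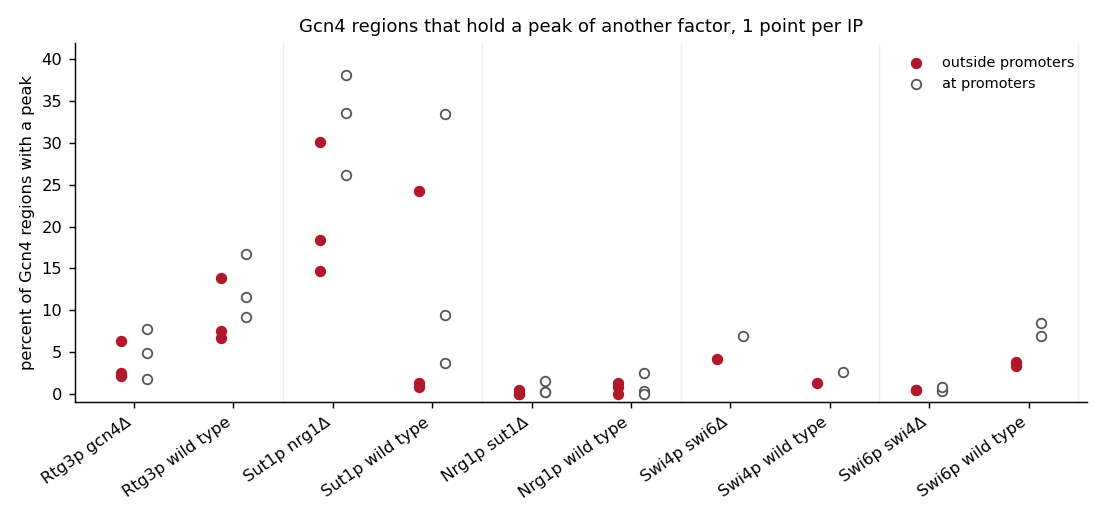
Percent of the 239 Gcn4 regions outside promoters (filled red) and of the 651 at promoters (open grey) that hold a peak of another factor, 1 point per IP, with each deletion strain left of its wild type. Rtg3p lies between 2.09% and 6.28% outside promoters in gcn4Δ IPs and between 6.69% and 13.8% in wild-type IPs, and a single wild-type Sut1p IP (24.3%) lies far above the other two.

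The region shared by the most factors lay at the 3' end of PCL2, a G1 cyclin of the Pho85 kinase (chrIV:235118-236087). The region covered 79.4% of this gene and lay 192 bp from its promoter. It held peaks of Rtg3p (1 IP), Sut1p (2 IPs), Swi4p (2 IPs) and Swi6p (2 IPs), while its Gcn4p peaks were weak, with 80.0 in rtg3Δ IP 3 and 94.8 in wild-type IP 2 as the only calls. Peaks of 3 other factors were found in 10 regions, of which the first 4 in order of position were taken. They lay over the convergent ends of VAC17, an adaptor for vacuole inheritance, and MRC1, a mediator of the replication checkpoint (chrIII:17979-19657), inside SWI4 itself (chrV:383056-385774), at the 3' end of YCK3, a casein kinase of the vacuole (chrV:405409-406817), and at that of CRH1, a cell wall enzyme that links chitin to glucan (chrVII:876489-877946). In SWI4 Gcn4p had no rtg3Δ peak, against 309.97 and 74.2 in wild-type IPs 2 and 3, and 2 Rtg3p, 3 Sut1p and 1 Swi6p IPs had a peak. VAC17 and MRC1 had 187, none and 97.5 in rtg3Δ IPs, against none, 216 and 59.7 in wild-type IPs. None of these 5 regions had a peak in all 3 wild-type Gcn4p IPs, and all were far weaker than the 20 strongest regions. How far the peaks of the other factors reach beyond these 5 regions, and whether into promoters, was not examined.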

How the data were processed

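ChIP DNA of 200 to 600 bp fragments was sequenced with 42-base reads. According to the submitters' processing notes, CASAVA 1.8, Novoalign 2.07.0 and MACS 1.4.0rc2 were used with genome build R64. The authors ran MACS separately for every IP with INPUT as control and deposited each peak with its MACS score, and the 20 INPUT samples enter only through these calls. Peak starts before the first base (21 of 8486) were set to the chromosome start.

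Promoters were the 600 bp upstream of 6430 genes of the RefSeq R64 table, whose strand was read from systematic names (1 of 6431 genes has none there). A gene absent from this table has no promoter here, so regions upstream of it would count as outside promoters. The reference is of another strain than W303. Overlap meant at least 1 bp. Convergent, 3' end, gene body and other classes were assigned in that order. Comparisons used two-sided exact permutation tests over IPs, tested on simulated lists. Wild-type replicates share a culture and deletion replicates do not, so P-values measure only the spread between these IPs. By rule the text named the 20 strongest regions in all 3 wild-type IPs, the 10 strongest, the 10 strongest in all 3 rtg3Δ IPs, 5 with the most other factors and 3 on each side of the promoter border. ZRG8, MSN2, DUG2, POX1, YKL162C and the 3' end and other intergenic regions were named after their values were seen. Members and gene lists were chosen with earlier results of these data known. Alternatives were a score of at least 100, promoters of 300 or 1000 bp, protein-coding genes, midpoints, support of 2 IPs, equal list lengths, an overlap of 100 bp, each IP left out and a replicate block. The software was Python (3.11.15) with NumPy (version 2.4.6), pandas (version 2.3.3) and, for plots, Matplotlib (version 3.10.9).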

Additional observations from a re-analysis of the deposited data

How the results depend on the processing

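The number of regions outside promoters was 239 as reported, 143 with scores of at least 100, 626 when a region was removed only if a promoter covered its midpoint, and 125 when support by 2 or more wild-type IPs was required. Under the other alternatives it was between 190 and 273, and leaving out each wild-type IP gave 190 to 239. The difference between strains in the share of peaks outside promoters (0.75 percentage points) had the opposite sign with midpoints (-7.99) and ranged from -3.24 to 4.79 over the IPs left out. The difference in the share of regions with a peak, rtg3Δ minus left-out wild type (-15.5), ranged from -26.6 to 0.73 over the IPs left out and from -16.8 to -3.62 under the other alternatives. The differences between regions outside and at promoters in rtg3Δ share (-11.5 to -4.57 percentage points) and in median score (-95.0 to -45.3) kept their sign under all 14 and 9 alternatives, and the Rtg3p difference (-7.73 to -3.03) under all 17. With so few IPs no test could pass 0.05, so the tests say nothing of stability.

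Replicate numbers did not pair the samples, as the deviations of same-numbered Gcn4p IPs correlated at -0.13, -0.07 and -0.12. With a replicate block the P-values (sign-flip exact permutation test) were 1.0 for the share of peaks (0.75), 0.25 for the share of regions (-15.5) and 0.25 for Rtg3p (-5.72). Leaving out the wild-type Sut1p IP 3 was added after seeing the data and gave 91 regions with a Sut1p peak in place of 109. The planned search for Gcn4 motifs and its alternatives could not be made, as genome sequence was not used here. Depth is unknown, so a region without a call in an IP may still be bound there.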
